A study of Mus musculus with 6 samples.

Results

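The distal nephron salt transport genes are 9 genes whose products reclaim sodium, chloride and potassium, or mark the segments that do so, in the last parts of the kidney tubule. They were taken as a list of symbols looked up in the gene names of the kidney count matrix, and 9 of 9 were found there, out of 31053 genes in all. The list holds Slc12a1, Umod and Kcnj1, Slc12a3 and Calb1, and Scnn1a, Scnn1b, Scnn1g and Hsd11b2. The rule uses no measured value.

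After the proximal tubule has taken back most of the filtered salt, the thick ascending limb of the loop of Henle (TAL) takes up sodium, potassium and chloride together through the cotransporter NKCC2, the target of loop diuretics. The distal convoluted tubule (DCT) follows with the thiazide-sensitive cotransporter NCC. In the connecting tubule (CNT) and the principal cells (PC) of the collecting duct, sodium enters through the epithelial sodium channel ENaC under the control of aldosterone, while intercalated cells (IC) handle acid and base.

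The study tested a microfluidic platform that breaks minced tissue into single cells. Here 3 droplet libraries came from kidneys of C57BL/6 males aged 12 weeks, with no transgene or drug named, and all 3 used 0.25% type I collagenase. The paper's reporting form states that control and device conditions of a replicate shared tissue of the same mouse. A conventional 60 min digestion was the control, and live cells were sorted before loading. The platform gave a suspension at 15 min and a second at 60 min, which were collected in turn from the same tissue run, so the 60 min library holds what came off after the 15 min collection. There was 1 library per condition, so no difference between conditions had a replicate and none was tested.

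Counts are unique molecular identifiers (UMIs), barcodes that let each captured RNA molecule be counted once. Sets of 3 values below follow the order control, 15 min, 60 min. The deposited matrix held 8233, 12082 and 13719 cells with 69691783, 116998401 and 112969440 UMIs. Cells with 200 to 3000 genes and at most 50% mitochondrial UMIs were kept, which left 5886, 8390 and 9936 cells with 33644880, 61434200 and 52338873 UMIs. The kept cells had medians of 5071, 6612 and 4583 UMIs, and their median mitochondrial share was 7.38, 20.4 and 8.59%. The 15 min library thus had the deepest cells and the highest mitochondrial share. Some cell barcode sequences were found in more than 1 library, and the number that would be shared by chance was not worked out. The control shared 53 with the 15 min library (0.644% of the smaller library) and 93 with the 60 min library (1.13%), and the platform libraries shared 211 (1.75%).

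Cells were assigned to segments by marker gates that contained none of the 9 genes. Each of 11 lists held 6 marker genes, and a cell joined the list with the most distinct genes detected when that number was at least 2 and above that of every other list. The TAL gate (Cldn10, Cldn16, Cldn19, Irx1, Irx2, Ptger3) took 86, 56 and 215 cells. The DCT gate (Pvalb, Trpm6, Emx1, Slc41a3, Cnnm2, Sall3) took 28, 19 and 37 cells, the CNT gate (Trpv5, Trpv6, S100g, Slc8a1, Klk1, Slc2a9) 103, 14 and 228, and the PC gate (Aqp2, Aqp3, Aqp4, Avpr2, Fxyd4, Elf5) 74, 13 and 103. The IC gate (Atp6v1g3, Atp6v0d2, Atp6v1c2, Foxi1, Slc4a1, Slc26a4) took 52, 27 and 53 cells. Together these 5 distal gates held 5.83, 1.54 and 6.40% of the kept cells. Proximal tubule cells (PT gate) filled most of the 15 min library, with 83.8% of its kept cells against 44.0% of the control and 26.8% at 60 min. Gates for leukocytes and endothelial cells were used for background.

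The gates were compared with their own markers and with the 9 genes. Slc12a1 and Umod were among the 10 genes most raised in gated TAL cells, Slc12a3 in DCT, Calb1 and Scnn1g in CNT, and Hsd11b2 and Scnn1b in PC cells. In no gate did markers of another list outnumber its own among those 10, an outcome that the gate rule itself favours. The levels of the 9 genes by gate given below restate the same values and are no separate support for the gates. The lists were not equally sharp. Cldn10 was detected in 86.8% of gated TAL cells but also in 84.7% of PT cells, and the CNT gate rested on S100g (100% of its cells) and Klk1 (99.4%), whereas Trpv5 was seen in 16.8%. In gated distal cells the other lists' summed levels had medians of 0, except for the CNT list in TAL (979 UMIs per 1000000, against 50678 in CNT cells), DCT, PC and IC cells and the thin limb list in PC cells. At the 2-gene minimum stood 353 of 1108 distal cells (31.9%), most often in CNT (165 of 345, 47.8%) and least often in IC (10 of 132), and 529 led the next list by 1 gene. A further 1758 kept cells (7.26%) joined no list. Doublets were removed only through the limit of 3000 genes, and that limit took 89 of 213 deposited DCT cells (41.8%). The mitochondrial limit weighed most on CNT cells, with 104, 20 and 176 of 227, 36 and 437 deposited cells above it, and then on TAL cells, with 41, 39 and 124 of 147, 111 and 391. The CNT and PC cells at 15 min were few and shallow, with medians of 1030.5 and 751 UMIs.

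The first question was how much RNA of each gene every suspension carried. Levels are given as UMIs per 1000000 UMIs of the same cells (CPM), and a ratio of levels carries an exact conditional binomial interval. Intervals on levels are exact Poisson and intervals on shares of cells exact Clopper-Pearson, all at 95%, and they cover counting error only. Over all kept cells, 9 of the 9 genes were lower at 15 min than in the control, 7 of them by 2-fold or more. Among all 13316 genes with at least 50 UMIs in the control and 15 min libraries together, 25.5% were 2-fold or more lower at 15 min. The median ratio to the control was 0.139 over the 9 genes and 0.773 over all genes. None of the 9 was 2-fold higher at 15 min, where 2.13% of all genes were. Leaving mitochondrial UMIs out of the totals multiplies every 15 min ratio by 1.12 (0.17 on the log2 scale) and changed none of these directions.

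At 60 min the picture differed. Slc12a1 and Umod, both genes of the TAL, were 2-fold or more higher than in the control, as were 8.78% of the 14121 genes with at least 50 UMIs in those libraries. None of the 9 was 2-fold lower, against 0.786% of all genes. The median ratio was 1.28 over the 9 genes and 1.17 over all genes. All 9 genes passed the minimum of 50 UMIs in both comparisons, which share the control library. At 15 min, Scnn1b and Scnn1g had 18 and 11 UMIs and passed it only through the control.

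**Figure D1:**
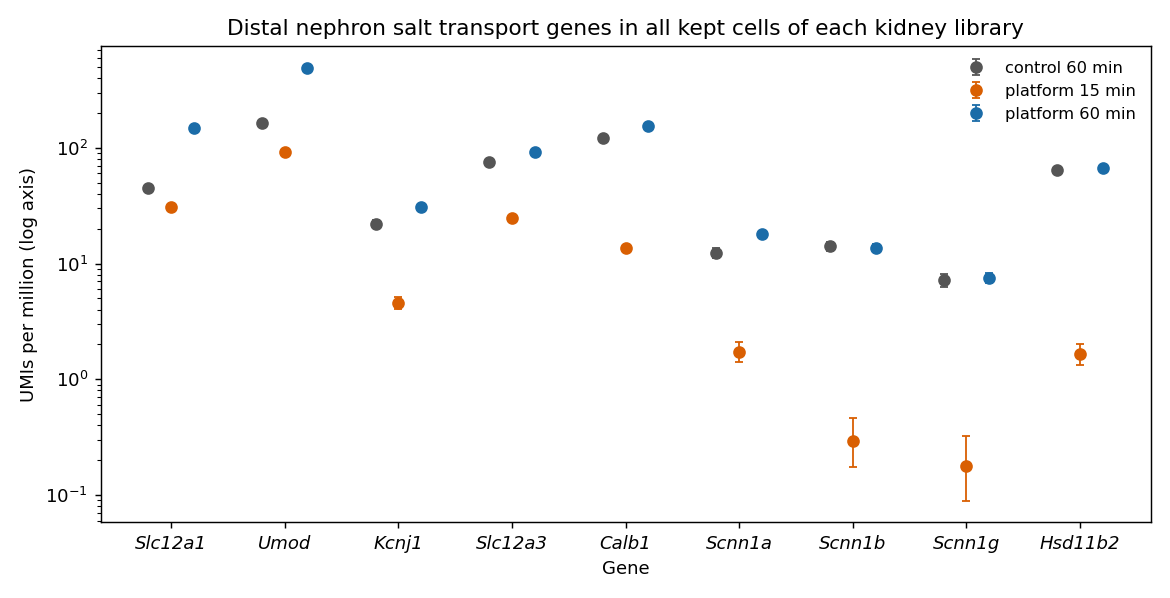
Level of the 9 genes in all kept cells of the 3 kidney libraries, in CPM on a log axis with exact Poisson 95% intervals. Every 15 min point lies below the control point of its gene, for example 91.3 against 164 for Umod and 0.179 against 7.13 for Scnn1g. The 60 min points lie above the control for 8 of the 9 genes, farthest for Slc12a1 and Umod.

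Slc12a1 (ENSMUSG00000027202, chr2:125152505-125230002, plus strand of the GRCm38 genome) encodes NKCC2. It had 1503 UMIs in the kept control cells (44.7 CPM), 1902 at 15 min (31.0 CPM) and 7754 at 60 min (148 CPM). The 60 min library was highest and the 15 min library lowest, with no overlap of their intervals. The ratio to the control was 0.693 (95% interval 0.647 to 0.742) at 15 min and 3.32 (3.14 to 3.51) at 60 min. Umod (ENSMUSG00000030963, chr7:119462711-119479282, minus strand) encodes uromodulin, the protein that TAL cells secrete into urine. It stood at 164, 91.3 and 487 CPM. The order of the libraries was that of Slc12a1. Its ratios were 0.557 (0.536 to 0.578) and 2.97 (2.89 to 3.06). Kcnj1 (ENSMUSG00000041248, chr9:32372493-32399197, plus strand) encodes ROMK, the potassium channel that returns potassium to the lumen of the TAL and secretes it in the collecting duct. Its level was 21.9, 4.53 and 30.9 CPM. It was low at 15 min and highest at 60 min, with ratios of 0.207 (0.179 to 0.237) and 1.41 (1.29 to 1.54).

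Gated TAL cells themselves made up 1.46% of kept control cells (interval 1.17 to 1.80), 0.667% of the 15 min library (0.505 to 0.866) and 2.16% of the 60 min library (1.89 to 2.47). Within them, the level of Slc12a1 was 2928, 4762 and 4360.1 CPM. Here the control was lowest and the platform libraries lay above it, with ratios of 1.63 (1.5 to 1.76) at 15 min and 1.49 (1.39 to 1.59) at 60 min. Umod in the same cells was at 8944, 11907 and 13544 CPM. It was again lowest in the control, with ratios of 1.33 (1.27 to 1.40) and 1.51 (1.46 to 1.57). Kcnj1 was at 294, 388 and 316 CPM in TAL cells. The intervals of all libraries overlapped. Its ratios were 1.32 (1.01 to 1.73) and 1.07 (0.864 to 1.35), the latter 0.966 when cells were gated by mean log values of the lists. So Slc12a1, Umod and Kcnj1 were lower at 15 min over the whole suspension but higher per UMI inside the TAL gate, and none of these within-gate ratios reached 2-fold. The median mitochondrial share of the TAL cells was also lowest in the control, at 18.3, 36.3 and 30.4%, and their median depth was 3435, 5356 and 4425 UMIs. Without mitochondrial UMIs the 15 min ratio of Slc12a1 in TAL cells was 1.92. Whether the mitochondrial share shifts these ratios in other ways was not tested. The share of TAL cells at the 2-gene minimum was also highest in the control, at 41.9, 33.9 and 31.6%. Whether the TAL gate was equally pure in the 3 libraries was not tested, so more RNA per TAL cell cannot be read from these ratios.

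Most gated TAL cells carried the TAL genes. After each cell was thinned at random to 1000 UMIs, so that cells of unequal depth can be compared, Umod was found in 82.1, 88.9 and 90.5% of TAL cells, with 8, 2 and 5 shallower cells left out. Before thinning the shares were 86.0, 91.1 and 95.3%. PT cells should lack Umod, and their thinned shares were 0.633, 0.40 and 2.77% at median depths of 6168, 7285 and 6413 UMIs. Endothelial cells and leukocytes should lack it too. Their shares were higher, at 3.18, 2.33 and 7.26% in endothelial cells and 1.61, 0.887 and 4.61% in leukocytes. The background was therefore highest at 60 min, where Umod was also most abundant in the library. Slc12a1 was found in 64.1, 83.3 and 77.6% of thinned TAL cells and in 0.158, 0.171 and 1.02% of thinned PT cells. The shares were 0.707, 0.258 and 2.75% in endothelial cells and 0.386, 0.355 and 1.54% in leukocytes. Kcnj1 was found in 23.1, 29.6 and 27.6% of thinned TAL cells. Without thinning, 300 of 357 TAL cells (84.0%) held Slc12a1 and Umod together and 213 (59.7%) held Kcnj1 as well. In PT cells, 71 of 12287 (0.578%) held the pair.

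The amount per cell varied widely. Scaled to 10000 UMIs per cell, the middle 50% of TAL cells held 34.0 to 175 Umod UMIs around a median of 93.3, and the highest cell 524. For Slc12a1 the same range was 7.77 to 58.2 around 27.2. Umod and Slc12a1 also parted in the next segment. Umod reached 1359.6, 2096 and 2303 CPM in DCT cells, with 209, 260 and 406 UMIs. Slc12a1 had 3, 0 and 9 UMIs in the same cells. DCT cells thus held Umod in every library and almost no Slc12a1. There were 2.97 Umod UMIs per Slc12a1 UMI in TAL cells (2.90 to 3.05), 3.78 in PT cells (3.42 to 4.20) and 3.31 in leukocytes (3.00 to 3.65), but 72.9 in DCT cells (41.5 to 142). After thinning, Umod was found in 50 of 81 DCT cells (61.7%), against 0.951% of PT cells and 3.32% of leukocytes.

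Slc12a3 (ENSMUSG00000031766, chr8:94329201-94366214, plus strand) encodes NCC, the salt cotransporter that defines the DCT. Over all kept cells its level was 75.4, 24.7 and 91.9 CPM. The 15 min library was the low one, and the control lay nearer to the 60 min library. The ratio to the control was 0.327 (0.307 to 0.349) at 15 min and 1.22 (1.16 to 1.28) at 60 min, and over all deposited cells the 60 min ratio was 0.819. Cells with more than 3000 genes, which the limits remove, held 70.7, 69.0 and 49.2% of the deposited Slc12a3 UMIs. Inside the DCT gate the level was 10389, 7377 and 9025 CPM, from 28, 19 and 37 cells. The control was highest there and the 15 min library lowest. The ratios were 0.710 (0.654 to 0.771) at 15 min and 0.869 (0.810 to 0.932) at 60 min, but over all deposited cells the 15 min ratio was 1.02, and without mitochondrial UMIs the 60 min ratio was 1.01. The largest share of these UMIs from a single cell was 30.6%, at 15 min. After thinning, Slc12a3 was found in 64 of 81 DCT cells (79.0%; 86.9% without thinning), and in 0.232% of PT and 0.877% of TAL cells.

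Slc12a3 did not stop at the DCT gate. In CNT cells it was at 269.7, 1252 and 2182 CPM. The 60 min library was highest and the control lowest, and at 15 min a single cell held 75% of the 36 UMIs. The CNT gate held 4.06% of all Slc12a3 UMIs in the kept control cells and 36.9% at 60 min, where the DCT gate held 33.1%. After thinning, 18.4% of CNT cells in the control and 37% at 60 min carried the gene, and 16 and 28 cells were left out. Slc12a1 and Slc12a3 are the cotransporters of neighbouring segments. Of 357 TAL cells, 304 held Slc12a1, 9 held Slc12a3 and 8 held both. Of 84 DCT cells, 3 held Slc12a1, 73 held Slc12a3 and 3 held both. Of 345 CNT cells these numbers were 47, 139 and 20. Few TAL cells held Slc12a3 and few DCT cells held Slc12a1. Most of those few also held the gene of their own segment, as did most cells of each of these gates.

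Calb1 (ENSMUSG00000028222, chr4:15881264-15908064, plus strand) encodes calbindin-D28k, the calcium-buffering protein of the DCT and CNT. Over all kept cells it stood at 121, 13.6 and 155 CPM. Only the 15 min library was far from the others, with a ratio of 0.113 (0.104 to 0.121). At 60 min the ratio was 1.28 (1.24 to 1.33), which was 0.942 when each cell's CPM counted equally. Its level was highest in CNT cells, at 5257, 9914 and 4869 CPM. PC cells followed with 1946, 4722 and 2419 CPM. DCT cells had 1145, 580.5 and 1690.4 CPM. Within each of the 3 libraries the order was CNT, then PC, then DCT. In CNT cells the 15 min library was the high one, at a ratio of 1.89 (1.66 to 2.14) from 285 UMIs in 14 cells, a single one of which held 33.7% of them, and which came to 1.25 by the mean of per-cell CPM. The share of CNT cells with a Calb1 UMI ran the other way, at 90.3, 57.1 and 78.9%, or 83.9, 62.5 and 75.5% after thinning with 16, 6 and 28 cells left out. In DCT cells the 15 min library was the low one, at 0.507 (0.380 to 0.671), although gating by mean log values gave 1.00. The 60 min ratio in DCT cells was 1.48 (1.22 to 1.79), but 0.813 over all deposited cells, and a single control cell held 48.3% of the control's Calb1 UMIs in that gate. Calb1 and Slc12a3 were found together in 50 of 84 DCT cells (59.5%) and 117 of 345 CNT cells (33.9%).

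ENaC is built from an alpha, a beta and a gamma subunit. Scnn1a (ENSMUSG00000030340, chr6:125320659-125344943, plus strand) encodes the alpha subunit, and its level over all kept cells was 12.4, 1.73 and 17.9 CPM. It was low at 15 min, with a ratio of 0.139 (0.111 to 0.172), and highest at 60 min, with 1.44 (1.28 to 1.62). Scnn1b (ENSMUSG00000030873, chr7:121865038-121918514, plus strand) encodes the beta subunit and had 473, 18 and 719 UMIs, or 14.1, 0.293 and 13.7 CPM. The control and the 60 min library overlapped, and the 15 min library was 48.0-fold lower (30.0 to 81.7) than the control. That ratio, 0.0208, was 0.0551 over all deposited cells and 0.0825 by the mean of per-cell CPM. Scnn1g (ENSMUSG00000000216, chr7:121734479-121768475, plus strand) encodes the gamma subunit and had 240, 11 and 394 UMIs, or 7.13, 0.179 and 7.53 CPM. It too was low only at 15 min, 39.8-fold lower (21.9 to 80.9) than the control, and its ratio of 0.0251 was 0.0515 by the mean of per-cell CPM. Hsd11b2 (ENSMUSG00000031891, chr8:105518755-105523988, plus strand) encodes the enzyme 11β-HSD2, which inactivates glucocorticoids in aldosterone target cells and so leaves the mineralocorticoid receptor to aldosterone. It had 2168, 101 and 3487 UMIs, or 64.4, 1.64 and 66.6 CPM. It was 39.2-fold lower (32.1 to 48.3) at 15 min than in the control, a ratio of 0.0255 that was 0.111 by the mean of per-cell CPM. At 60 min the ratios of Scnn1b, Scnn1g and Hsd11b2 were 0.977, 1.06 and 1.03, with 1 inside each interval, and each lay on the other side of 1 under at least 1 other choice of cells or scaling.

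The cells that should carry these genes were scarce in the 15 min suspension. CNT cells made up 1.75% of kept control cells (interval 1.43 to 2.12), 0.167% of the 15 min library (0.0913 to 0.280) and 2.29% of the 60 min library (2.01 to 2.61). PC cells made up 1.26% (0.988 to 1.58), 0.155% (0.0825 to 0.265) and 1.04% (0.847 to 1.26). Both were lowest at 15 min with no overlap of intervals. Among the gated distal cells alone, TAL cells made up 25.1, 43.4 and 33.8%. CNT cells made up 30.0, 10.9 and 35.8% of them. PC cells made up 21.6, 10.1 and 16.2%, DCT cells 8.16, 14.7 and 5.82%, and IC cells 15.2, 20.9 and 8.33%. The distal cells of the 15 min library thus leaned to the TAL, DCT and IC gates and away from the CNT and PC gates. Several of these intervals overlapped, among them those of DCT and IC cells in the control and at 15 min.

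In PC cells, Hsd11b2 was at 4205, 2971 and 4011 CPM. The control and the 60 min library overlapped, and the 15 min library was lower at a ratio of 0.706 (0.530 to 0.924), although gating by mean log values gave 1.13. Scnn1b in PC cells was at 874, 477 and 702 CPM. Its 15 min interval, from 9 UMIs, overlapped both other libraries. Scnn1a in PC cells was at 420.2, 53.1 and 512 CPM, where the 15 min value was 1 UMI, a ratio of 0.126 (0.00317 to 0.718). By the mean of per-cell CPM that ratio was 0.276. Scnn1g was at 447 CPM in the control and 344 at 60 min, and had 0 UMIs in the 13 PC cells at 15 min. Set against a floor of 3 counts in that library, this is at least 2.81-fold lower than the control, a ratio of at most 0.356, or 0.599 when gated by mean log values. Kcnj1, which secretes potassium in these cells, was at 731, 371 and 529.9 CPM. Its control value was highest, and the ratio was 0.508 (0.202 to 1.07) at 15 min and 0.725 (0.597 to 0.882) at 60 min.

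In the control and at 60 min, Scnn1a, Scnn1b, Scnn1g and Hsd11b2 were each lower in CNT than in PC cells. At 15 min Scnn1a was not, from 7 UMIs in CNT and 1 UMI in PC cells. For Scnn1g, 1 UMI in CNT against 0 UMIs in PC cells gave no order. The CNT gate was mixed, as a split chosen after values were seen showed. In the control and at 60 min, CNT cells with both Aqp2 and Trpv5 had Scnn1b at 578 and 582 CPM and Scnn1g at 366 and 295 CPM. Cells with neither had Scnn1b at 79.6 and 101 CPM and Scnn1g at 102 and 79.9 CPM. Hsd11b2 in CNT cells was at 1265, 209 and 947 CPM. The control was highest, with ratios of 0.165 (0.0603 to 0.362) at 15 min, from 6 UMIs, and 0.749 (0.668 to 0.841) at 60 min. Over all deposited cells the 60 min ratio was 1.05. Scnn1a in CNT cells was at 217, 243 and 249.8 CPM, and all 3 intervals overlapped, with a 15 min ratio of 1.12 that turned to 0.593 over all deposited cells. Scnn1b was at 272, 34.8 and 207 CPM. Scnn1g was at 189, 34.8 and 160.0 CPM. For Scnn1b and Scnn1g the 15 min values were 1 UMI each, with ratios of 0.128 (0.00320 to 0.728) and 0.185 (0.00461 to 1.06). The 15 min ratio of Scnn1g was 0.858 with at least 3 marker genes per cell, and that of Scnn1b was 0.436 over all deposited cells and 0.0537 by the mean of per-cell CPM. For Hsd11b2 it was 0.0431 with 3 marker genes and 0.403 by the mean of per-cell CPM. At 15 min, 11 of the 14 CNT cells stood at the 2-gene minimum, so the values with 3 marker genes rest on 3 cells. The mix of cells also differed, since 13 of the 14 held neither Aqp2 nor Trpv5, against 67 of 103 in the control. In cells with neither marker, Hsd11b2 was at 143 CPM at 15 min and 512 CPM in the control. Scnn1b in these cells was at 35.6 and 79.6 CPM, from 1 and 14 UMIs. The size of these differences was not settled, and the interval of Scnn1g includes 1. At 60 min, Scnn1b and Scnn1g in CNT cells had ratios of 0.759 (0.591 to 0.979) and 0.849 (0.631 to 1.15), which turned to 1.08 and 1.12 over all deposited cells.

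The subunits were also counted in single cells, since a complete channel needs all 3. All 3 transcripts were found in 78 of 190 PC cells (41.1%, 34.0 to 48.4%), and 78 of these 78 cells also held Hsd11b2. In CNT cells the count was 56 of 345 (16.2%). It was 2 of 132 in IC cells and 0 of 357 in TAL cells, counts of detection that depend on depth. PT cells, at a median of 6888 UMIs against 3118 in PC cells, held all 3 in 4 of 12287. Complete sets were therefore most common in PC cells, less so in CNT cells and rare in IC, TAL and PT cells. At 1000 UMIs per cell the counts were 11 of 167 PC cells (6.59%) and 5 of 295 CNT cells (1.69%). Another 51 PC cells held 2 subunits, 39 held 1 and 22 held none.

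Hsd11b2 was the gene found in the largest share of PC cells among the 9. At 1000 UMIs per cell it was detected in 152 of 167 PC cells (91.0%), against 94.2% of all 190 without thinning, and in 0.141% of PT cells. Scaled to 10000 UMIs per cell, the middle 50% of PC cells held 22.1 to 52.3 Hsd11b2 UMIs. In CNT cells the thinned share was 34.2%, and 58.3% of the 345 cells had no Hsd11b2 UMI at their own depth. Slc12a3 and Hsd11b2, which mark the 2 ends of the stretch from DCT to collecting duct, shared 21 of 345 CNT cells (6.09%), whereas 139 held Slc12a3 and 144 held Hsd11b2.

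Across the gates with a mean over the 3 libraries, 9 of the 9 genes were highest in a segment that textbooks give as their home. Levels are ordered within a gene and not between genes, because UMIs are counted from the 3′ ends of transcripts with gene-specific capture. Slc12a1 in TAL cells was 24.2-fold above CNT cells, the next gate, with no overlap of the library ranges. Umod in TAL was 5.97-fold above DCT, and DCT 2.68-fold above CNT, again with no overlap. Slc12a3 in DCT was 7.23-fold above CNT and there 107-fold above the next gate. These genes formed steep steps. Kcnj1 instead formed a plateau, in which PC (544 CPM), CNT (471), DCT (442) and TAL (332) each overlapped their neighbour, and which ended 59.9-fold above endothelial cells. The overlap of PC with CNT came from the 15 min PC value of 371 CPM, from 7 UMIs.

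Scnn1a was the broadest of the ENaC genes. PC (328 CPM), CNT (237), IC (203), DCT (119) and TAL cells (76.1) overlapped in turn, and TAL stood 12.5-fold above the next gate. The overlap of PC with CNT came from the 15 min PC value of 53.1 CPM, from 1 UMI. In the control and at 60 min PC cells were at 420 and 512 CPM, above the highest CNT value of 249.8. Scnn1b was narrower, with PC 4.0-fold above CNT and no overlap, although the CNT mean included 1 UMI (34.8 CPM) at 15 min. It had 0 UMIs in TAL cells of the 3 libraries. For Scnn1g, PC (264 CPM) and CNT (128) overlapped, and CNT was 55.3-fold above IC. That overlap came from the 0 UMIs in 13 PC cells at 15 min. In the control and at 60 min Scnn1g was at 447 and 344 CPM in PC cells, above the highest CNT value of 189. In IC cells Scnn1b was at 64.8 CPM, and its library range there overlapped that of CNT. The alpha subunit thus reached TAL cells, where Scnn1b had no UMI and Scnn1g was at 1.99 CPM. Hsd11b2 in PC was 4.62-fold above CNT, and CNT 12.9-fold above IC, with no overlap. Calb1 in CNT was 2.21-fold above PC, PC 2.66-fold above DCT and DCT 7.35-fold above IC, with no overlap at any step. In IC cells, Scnn1a was at 198, 181 and 229 CPM. The 3 IC values overlapped.

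**Figure D2:**
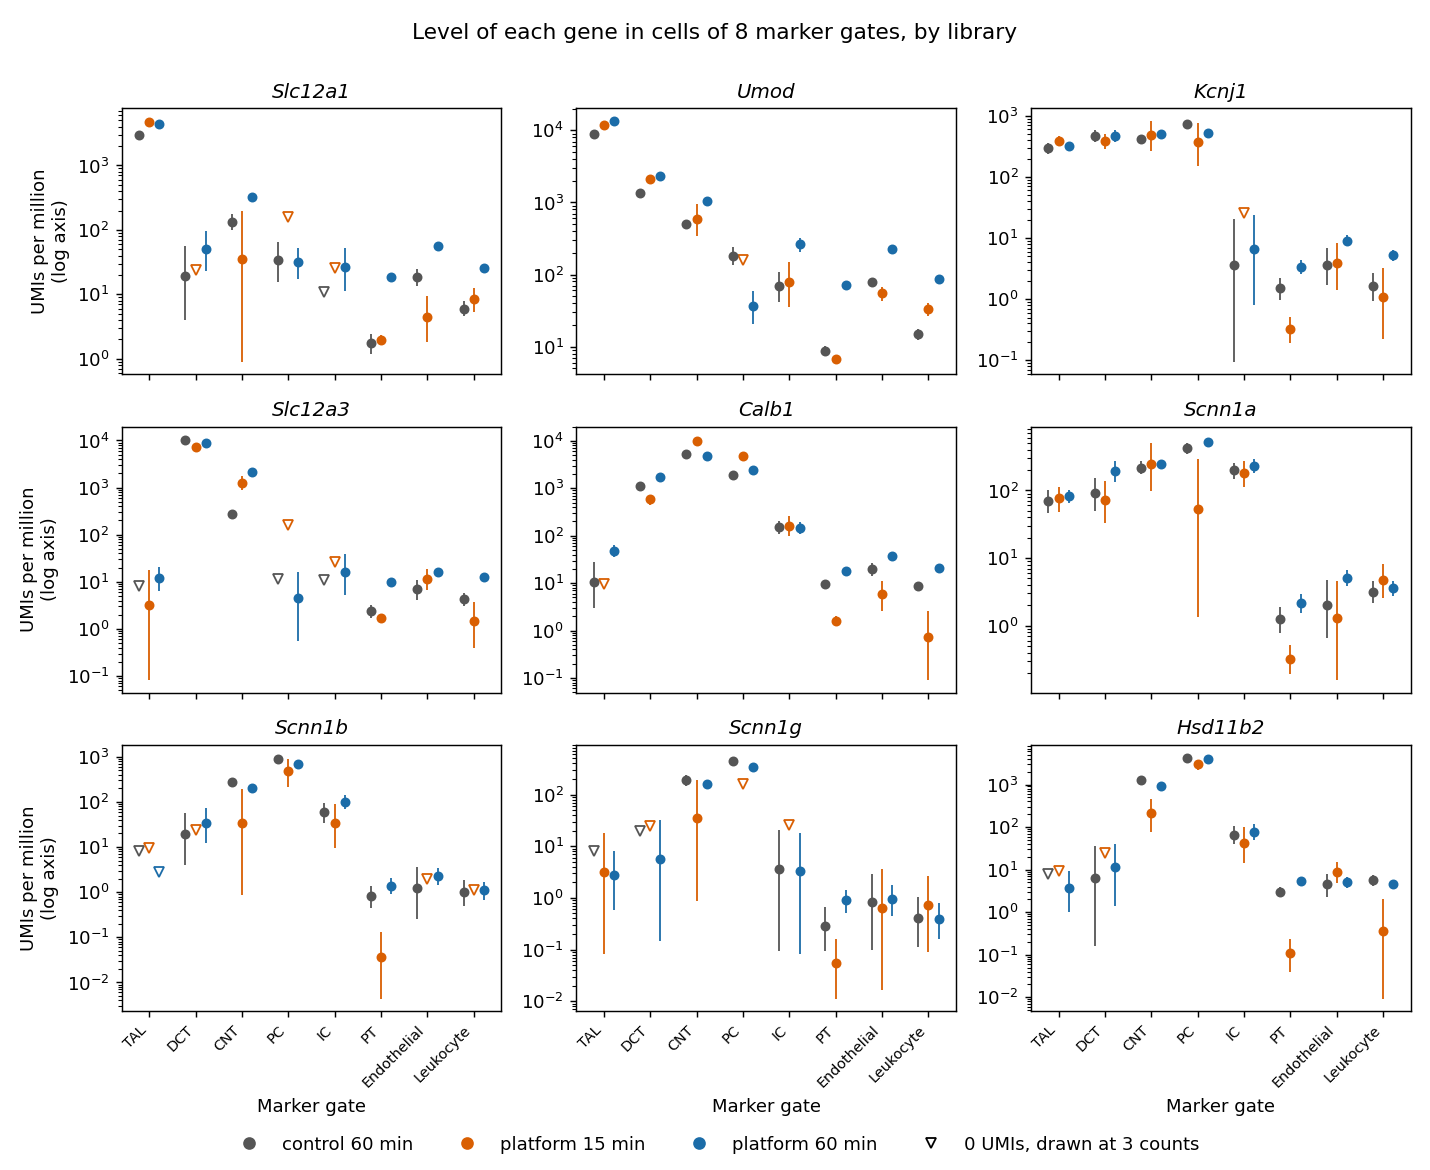
Level of each gene in 8 marker gates, in CPM on log axes with exact Poisson 95% intervals, where open triangles mark 0 UMIs, drawn at 3 counts. Slc12a3 falls from 10389 in DCT cells of the control to 2.41 in PT cells, while Kcnj1 stays between 294 and 731 across the TAL, DCT, CNT and PC gates of that library.

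**Figure D3:**
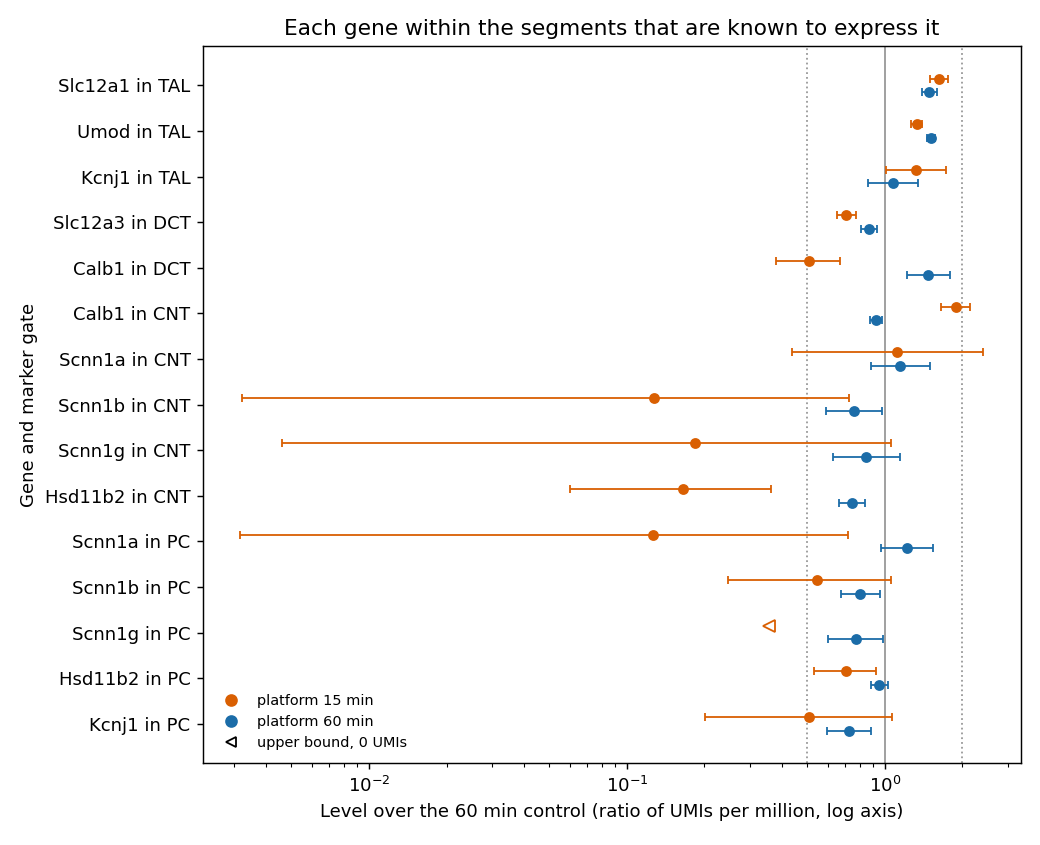
Ratio of each gene's level to the 60 min control within the segments known to express it, with 95% intervals on a log axis, dotted lines at 2-fold and an open triangle for an upper bound from 0 UMIs. The 60 min ratios lie between 0.725 and 1.51, and the 15 min ratios past 2-fold all belong to the CNT and PC gates.

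Pairing each gene with its home segments gave 15 pairs. At 15 min, 5 pairs were 2-fold or more below the control and 0 above, and the 5 rested on 14 CNT and 13 PC cells. In CNT cells 3 of 5 pairs were lower, compared with 14.5% of 876 genes with at least 50 UMIs in the same cells. In PC cells 2 of 5 were lower, compared with 14.1% of 659 genes. These 5 pairs had at most 6 UMIs at 15 min and passed the minimum of 50 only through the control. Their comparison with all genes is therefore a description and no test. Among all genes, 7.65% in CNT and 10% in PC cells were 2-fold or more higher. In TAL cells 6.62% were lower and 1.09% higher, and in DCT cells 1.13% and 1.98%. At 60 min, 0 pairs were 2-fold away in either direction. The shares of all genes lower were then 1.88% in TAL, 3.70% in DCT, 5.43% in CNT and 0.929% in PC cells, and the shares higher 2.80, 1.85, 2.64 and 1.08%. Pooling the 343, 129 and 636 gated distal cells without regard to segment gave another picture. Slc12a1 and Umod were then 2-fold or more higher at 15 min, at ratios of 3.13 and 2.55, compared with 1.20% of 4500 genes. Calb1 (0.406), Scnn1b (0.0948), Scnn1g (0.0251) and Hsd11b2 (0.0995) were 2-fold or more lower, compared with 6.20% of all genes. Scnn1b and Scnn1g, with 14 and 2 UMIs at 15 min, likewise passed the minimum only through the control. At 60 min, Slc12a1 (2.23) and Umod (2.16) were 2-fold or more higher, against 1.01% of 7058 genes. None of the 9 was 2-fold lower, against 1.32%. In pooled cells, more cells of a segment and more RNA per cell cannot be told apart. The median ratio over the 9 genes was 0.516 at 15 min and 1.02 at 60 min, and over all genes 0.929 and 0.930.

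A list of 18 further genes of these pathways, covering ion channels, the WNK kinases and their partners, and the aldosterone response, was followed in the gated distal cells. These cells were pooled over segments, so a different mix of segments and a different level per cell cannot be told apart. UMIs were found for 17 of the 18, and Kcnma1 had 0 in all 3 libraries. At 15 min, 3 genes were 2-fold or more below the control and 2 above, and at 60 min 0 were past 2-fold in either direction. Of all genes with at least 50 UMIs in these cells, 6.20% were lower and 1.20% higher at 15 min, a minimum that Oxsr1 and Casr, with 30 and 24 UMIs in the control and 5 and 21 at 15 min, did not reach. The median ratio was 0.850 at 15 min and 1.05 at 60 min, against 0.929 and 0.930 over all genes. Sgk1, an aldosterone-induced kinase that keeps ENaC at the cell surface, was at 114, 8.30 and 69.4 CPM, from 165, 5 and 195 UMIs. It was low at 15 min, with a ratio of 0.0726 (0.0233 to 0.173). In TAL cells Sgk1 was at 78.1, 3.18 and 7.45 CPM, so the control was the high library there, with a 60 min ratio of 0.0953 (0.0377 to 0.214). Endothelial cells held more of it, at 1018, 986 and 710.0 CPM.

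Kcnj10, a basolateral potassium channel, was at 75.5, 31.5 and 93.6 CPM and lowest at 15 min, with a ratio of 0.418 (0.242 to 0.684). By segment, it ranged over the libraries from 140 to 199 CPM in PC cells and from 69.6 to 139 in CNT cells. It ranged from 18.9 to 35.4 CPM in TAL cells. Oxsr1, a kinase that WNK kinases activate, was at 20.8, 8.30 and 19.9 CPM, with a 15 min ratio of 0.399 (0.121 to 1.04). Its 15 min value rested on 5 UMIs and its interval includes 1. Casr, the calcium-sensing receptor, was at 16.6, 34.9 and 26.3 CPM, with a ratio of 2.10 (1.11 to 3.93). Within TAL cells, Casr was at 10.8, 54.0 and 46.5 CPM, from 4, 17 and 50 UMIs, and both platform libraries lay above the control, at ratios of 5.01 (1.63 to 20.5) and 4.32 (1.59 to 16.5). The other named genes stayed within 2-fold. Nedd4l, the ubiquitin ligase that removes ENaC from the membrane, was at 68.6, 38.2 and 61.6 CPM. Stk39, which encodes the kinase SPAK that activates NCC and NKCC2, was at 83.1, 92.9 and 73.6 CPM. Nr3c2, the mineralocorticoid receptor, was at 32.5, 19.9 and 34.2 CPM. The 15 min ratio was 0.557 (0.337 to 0.883) for Nedd4l, which was thus lower at 15 min in the pooled cells. It was 1.12 (0.799 to 1.55) for Stk39 and 0.612 (0.295 to 1.17) for Nr3c2, whose intervals include 1. Bsnd, which encodes barttin, was at 56.1, 58.1 and 67.2 CPM, with overlapping intervals throughout.

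Genes with the most similar pattern were sought over 24 points, each a gate of 1 library with at least 20 cells, by Pearson's r on log2 of CPM plus 1, among 11121 genes. The points share libraries and the gates were drawn on some of these genes, so r is a description. The closest to Slc12a1 were Pla1a (r = 0.907), Egf (r = 0.889) and Ppp1r1b (r = 0.877). For Umod they were Wfdc15b (r = 0.967), Ppp1r1b (r = 0.933) and Lrrc66 (r = 0.917). For Kcnj1 they were 1110019B22Rik (r = 0.95), Tfap2b (r = 0.944) and Nckap5 (r = 0.903). Slc12a1 and Umod had Ppp1r1b in common. For Slc12a3 they were Pvalb (r = 0.925), a gate gene, Lrrc52 (r = 0.912) and Uroc1 (r = 0.891). For Calb1 they were S100g (r = 0.966), a gate gene, Pgam2 (r = 0.919) and 9230102O04Rik (r = 0.911). Scnn1a, whose pattern was broad, had Slc16a5 (r = 0.974) and Mal2 (r = 0.968) among its 3 closest. Scnn1b was closest to Rhcg (r = 0.951), 9230102O04Rik (r = 0.951) and Hsd11b2 (r = 0.894). Scnn1g was closest to A930017K11Rik (r = 0.936), Kcne1 (r = 0.922) and Trpv5 (r = 0.922), the last a gate gene. Hsd11b2 was closest to Aqp2 (r = 0.971), a gate gene, A930017K11Rik (r = 0.918) and Kcne1 (r = 0.904). The beta and gamma subunits and Hsd11b2 thus drew neighbours from the PC and CNT gates, and Hsd11b2 itself was among the nearest genes of Scnn1b.

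The 9 genes lie on 6 chromosomes of GRCm38 and are all protein-coding. Scnn1g and Scnn1b are neighbours on chromosome 7 in the same direction, with 96562 bases between them, and Umod lies 2255196 bases from Scnn1g on the other strand. Scnn1a, the broader subunit gene, is on chromosome 6. RefSeq promoters of 300 bases (250 before to 50 after the start, build GRCm38.p6) were available for 6 of the 9 genes, and not for Scnn1a, Hsd11b2 and Calb1. They were searched on both strands for 3 motifs. The motif of the factor HNF1 is GTTAAT and ATTAAC with 1 free base between, and a match with at least 10 of these 12 letters was held by Slc12a1 and Umod and by 446 of 32851 promoters (1.36%). The glucocorticoid and mineralocorticoid receptors share the palindrome AGAACA and TGTTCT with 3 free bases between, and a match with at least 9 of 12 letters was held by Scnn1b and Kcnj1 and by 14.5% of all promoters. The AP-2 motif GCCNNNGGC in full was held by Umod and Slc12a3 and by 16.6%. A match is a description of letters and not a binding site. The G and C content was 42.7% for Slc12a1 and 47.3% for Umod, 61.7% for Scnn1b and 64.7% for Scnn1g, around a median of 52.7% for all promoters.

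The promoters of Slc12a1 and Umod are printed because these genes stood apart from the rest at 60 min, and those of Scnn1b and Scnn1g because they had the lowest 15 min ratios to the control over all kept cells, though close to that of Hsd11b2. Capitals mark the HNF1 match, 10 of 12 letters in Slc12a1 and in Umod, and the Scnn1b and Scnn1g sequences have none. The Slc12a1 sequence is chr2:125152350-125152649 on the plus strand, Umod chr7:119479213-119479512 on the minus strand, Scnn1b chr7:121864788-121865087 and Scnn1g chr7:121734229-121734528 on the plus strand, each 5′ to 3′ from RefSeq, GRCm38.p6.
Slc12a1: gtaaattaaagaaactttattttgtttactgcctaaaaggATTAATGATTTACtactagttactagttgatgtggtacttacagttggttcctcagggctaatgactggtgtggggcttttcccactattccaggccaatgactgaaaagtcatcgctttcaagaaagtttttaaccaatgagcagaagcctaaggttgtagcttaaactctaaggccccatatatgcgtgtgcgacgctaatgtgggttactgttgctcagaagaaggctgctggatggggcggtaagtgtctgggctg
Umod: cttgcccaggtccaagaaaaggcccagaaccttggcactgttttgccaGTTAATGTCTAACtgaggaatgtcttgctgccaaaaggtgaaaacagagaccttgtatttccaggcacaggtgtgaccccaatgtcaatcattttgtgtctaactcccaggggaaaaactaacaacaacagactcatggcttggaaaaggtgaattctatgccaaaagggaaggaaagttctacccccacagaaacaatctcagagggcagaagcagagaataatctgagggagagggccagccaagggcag
Scnn1b: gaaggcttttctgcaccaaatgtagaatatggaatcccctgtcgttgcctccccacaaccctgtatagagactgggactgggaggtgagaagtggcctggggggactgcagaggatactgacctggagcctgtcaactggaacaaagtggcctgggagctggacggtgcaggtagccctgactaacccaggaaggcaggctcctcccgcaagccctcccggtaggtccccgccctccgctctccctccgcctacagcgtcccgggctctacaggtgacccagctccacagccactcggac
Scnn1g: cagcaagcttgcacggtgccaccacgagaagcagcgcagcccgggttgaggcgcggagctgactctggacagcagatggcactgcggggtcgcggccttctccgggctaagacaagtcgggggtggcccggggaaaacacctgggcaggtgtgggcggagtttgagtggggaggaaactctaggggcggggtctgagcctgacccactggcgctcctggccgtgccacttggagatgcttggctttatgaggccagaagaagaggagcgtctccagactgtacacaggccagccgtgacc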

How the data were processed

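Kidney suspensions were sequenced as 3 droplet libraries (10x 3′ chemistry), and 3 further libraries came from mammary tumors. The deposited values are UMI counts per gene and cell, which the authors made with Cell Ranger 3.1.0 on mm10 and joined per tissue by an aggregation step that evened out mapped reads between libraries, so depth per cell was partly set by that step. The gene annotation used for counting is not given in the sources used here. Columns were assigned to libraries by the barcode suffix.

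Cells with 200 to 3000 genes and at most 50% mitochondrial UMIs were kept. Counts were summed over cells and scaled to CPM, in Python 3.11.15 with numpy 2.4.6, scipy 1.17.1, pandas 2.3.3 and matplotlib 3.10.9. Marker gates took cells with at least 2 distinct genes of a 6-gene list and more than of any other of 11 lists, and home segments came from textbook knowledge. The 9 genes and the lists were chosen with earlier results of these data known. All 9 genes, all pairs of a gene with a home segment, those of the 18 pathway genes past 2-fold and Nedd4l, Stk39, Nr3c2, Sgk1 and Bsnd are named, with the 3 nearest genes per gene by r, except 1 pathway gene and 1 nearest gene that were left out of the text. A ratio past 2-fold was a description of size, at a minimum of 50 UMIs for counts over all genes, with a floor of 3 counts for zeros. The precision that the depth gives is the interval beside each value. Ratio calls and the search for similar genes were tested on simulated data. Positions are from GENCODE vM21 (GRCm38) and promoters from RefSeq.

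Alternatives were all deposited cells, totals without mitochondrial UMIs, means of per-cell CPM, thinning to 1000 or 500 UMIs, gates at 3 genes or by mean log value, 1.5-fold, and minimums of 20 UMIs and 1 UMI. With the data in view, the 60 min platform library as the base was added. No test was run, since each condition had 1 library.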

Additional observations from a re-analysis of the deposited data

Results flagged for a closer look

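Signals of these genes also appeared in data that the comparisons did not use, the 3 mammary tumor libraries of 10-week-old MMTV-PyMT mice. A count above the floor of 3, summed over these libraries, drew attention. Over 24527 tumor cells, Scnn1b had 4479 UMIs, with 1322, 2179 and 978 in the 3 libraries (14.6, 21.5 and 10.1 CPM). Scnn1b UMIs were thus present in each of the 3 suspensions. Scnn1a had 475 UMIs, Scnn1g 225, Hsd11b2 131, Slc12a3 81 and Calb1 4. The Calb1 UMIs were 1, 2 and 1 by library, not above the floor in any single library. Slc12a1 and Kcnj1 had 1 UMI each and Umod 0, which is not above the floor. The cells that held these UMIs were not identified.

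Calb1 was listed because its ratios to the control lay on opposite sides of 1 in its 2 home segments with intervals that exclude 1 in both. Kcnj1 at both times and Scnn1a at 15 min also differed in side between segments, but at least 1 of the intervals included 1. At 15 min it was 1.89 in CNT and 0.507 in DCT cells, and at 60 min 1.48 in DCT and 0.926 in CNT cells. Each rests on 1 library per condition, and the difference between the segments was not tested. The intervals cover counting error only and not the spread between cells. Single cells held large shares of the Calb1 UMIs of CNT cells at 15 min and of DCT cells in the control. With gates by mean log value the 15 min ratio in DCT cells was 1.00, and over all deposited cells the 60 min ratio in DCT cells was 0.813.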

How the results depend on the processing

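Each condition had 1 library, so no replicate could be left out, and values from the 14 CNT and 13 PC cells at 15 min are limited by depth. Under every alternative tried, 9 of the 9 genes kept their highest level in a home segment and 2 were 2-fold or more higher at 60 min over all kept cells. The number 2-fold or more lower at 15 min was 7, except for 8 at 1.5-fold and 9 with the 60 min platform library as the base, an alternative chosen after seeing the data. Ratios to the control stayed on the same side of 1 in 40 of 48 values with all deposited cells, 16 of 18 with thinning, 29 of 30 with gates at 3 genes, 25 of 30 with gates by mean log value, 45 of 48 with means of per-cell CPM and 46 of 48 without mitochondrial UMIs. Among all recomputed ratios, 62 left the interval of the reported value and 160 did not. For shares of cells with a UMI these numbers were 48 and 42.

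For pairs of a gene with a home segment, 1.5-fold gave 8 below (5 at 2-fold) and 2 above (0) at 15 min and 1 above (0) at 60 min, as a looser fold must admit more. At 15 min, all deposited cells gave 5 below and 1 above, and the 60 min platform library as the base gave 6 below and 1 above; the cause was not tested. Among all genes in all kept cells, a minimum of 1 UMI gave 5905 below and 482 above at 15 min (3393 and 283 at 50 UMIs), and 618 below and 2319 above at 60 min (111 and 1240), and a minimum of 20 UMIs gave 183 below at 60 min. In gated distal cells, minimums of 20 and 1 gave 747 and 1411 below (279 at 50) and 198 and 1079 above (54) at 15 min. At 60 min they gave 231 and 741 below (93) and 267 and 830 above (71). A lower minimum admits more genes with few counts.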

Other observations

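The gated cells were also split by single markers, and these splits were chosen after values of these genes were seen. Values are given for the control and the 60 min library, and then for some splits of the 15 min library. In the TAL, the claudins Cldn10 and Cldn16 are known to mark cells with unlike paracellular pathways. Umod was at 7409 and 11579.9 CPM in 66 and 146 cells with Cldn10 alone. It was at 18112 and 11595 CPM in 7 and 21 cells with Cldn16 alone and at 10481 and 20318 CPM in 10 and 37 cells with both. At 60 min, 11 cells with neither had 9822 CPM. At 15 min, Umod was at 9735 CPM in 43 cells with Cldn10 alone and at 16308 CPM in 8 cells with both. The order of Cldn16 alone and both claudins differed between the libraries.

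In CNT cells, Hsd11b2 followed Aqp2, the water channel of principal cells, in both libraries. It was at 1449 and 2350.2 CPM with Aqp2 and no Trpv5 (17 and 29 cells), 2658 and 2415 with both (13 and 20 cells), 511 and 316 with Trpv5 and no Aqp2 (6 and 19 cells) and 512 and 355 with neither (67 and 160 cells). Slc12a3 in the same order was at 14.5 and 54.4, 241 and 349, 30.1 and 4684 and 432 and 2654 CPM. It was highest in the control in cells with neither marker, and at 60 min in cells with Trpv5 alone, of which the control had 6 with 1 Slc12a3 UMI. At 15 min, 13 cells with neither marker had Hsd11b2 at 143 and Slc12a3 at 1283 CPM. In IC cells, Scnn1a was at 232 and 207 CPM with Slc4a1, a marker of acid-secreting cells (16 and 17 cells). With Slc26a4, a marker of base-secreting cells, Scnn1a was at 227 and 294 CPM (19 and 22 cells), and at 203 CPM in 16 cells at 15 min.

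The values rest on 1 library per condition and on sequential collections of the same run at 15 and 60 min, so a difference between libraries cannot be separated from a difference between preparations. Cells above 3000 genes were left out, and they held 32.9 to 73.4% of the deposited UMIs of a gene in a library. Gates used RNA detection, so shallow cells were gated less surely, and CNT membership leaned on S100g and Klk1. Umod UMIs in PT cells differed between libraries, and free RNA, doublets and misgated cells were not told apart as their source. Protein and transport were not measured.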
